A study of Mus musculus with 3 samples.

Results

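MHC class I antigen presentation was described in primary mouse hepatocytes through 10 genes taken by symbol from the deposited expression tables: the heavy chains H2-K1 and H2-D1, their light chain B2m, the peptide transporter and loading genes Tap1, Tap2 and Tapbp, the immunoproteasome genes Psmb8, Psmb9 and Psmb10, and the regulator Nlrc5. Of these 10 genes, 9 had a row among the 37620 Ensembl identifiers, and all 9 passed the filter on low values that left 11300 genes for testing. The identifier that GENCODE release M21 pairs with Psmb9 matched no row, so Psmb9 was not analysed here. The hepatocytes came from C57BL/6 mice, were freed from the liver with collagenase and were plated on gelatin in medium with serum and insulin. One group received the solvent DMSO (1 library, no treatment time in the labels). The other received tauroursodeoxycholic acid (TUDCA), a taurine-conjugated bile acid also used as a chemical chaperone, at a labelled 100 mM for 24 h (2 libraries). The labels give no age, sex or number of animals, and the dose was not checked against another source. The comparison asked which genes TUDCA modulates relative to DMSO, and a difference in culture time between the groups cannot be told apart from TUDCA.

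Class I molecules display peptides from proteins of the cell's own cytosol and nucleus to cytotoxic T cells. Proteasomes cut the proteins, the TAP transporter carries the peptides into the endoplasmic reticulum (ER), tapasin and ER chaperones load them onto a heavy chain paired with beta-2-microglobulin, and the complex travels to the cell surface. Interferons raise most of these genes together, partly through the transactivator NLRC5. They also lead to an exchange of catalytic subunits of the standard proteasome for those of the immunoproteasome. Hepatocytes carry class I molecules at rest and do not normally carry class II molecules.

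The promoters of the heavy chains and of B2m are shown first because these promoters are known for elements that answer to interferon and NF-kappaB. RefSeq promoters (GRCm38.p6, the build of that table) were found for 8 of the 10 genes. Each line below gives bases before the annotated gene start, 5′ to 3′ on the strand of the gene, with motif matches in capitals. H2-K1 lies at chr17:34000348-34000597 on the minus strand (upstream of the first of its annotated starts) and H2-D1 at chr17:35262844-35263093 on the plus strand. B2m lies at chr2:122147437-122147686 on the plus strand. The last line is the 225-base stretch between the starts of Tap1 (plus strand) and Psmb9 (minus strand), which face away from each other, at chr17:34187331-34187555. No source used here gives the genome build of the expression tables.

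H2-K1: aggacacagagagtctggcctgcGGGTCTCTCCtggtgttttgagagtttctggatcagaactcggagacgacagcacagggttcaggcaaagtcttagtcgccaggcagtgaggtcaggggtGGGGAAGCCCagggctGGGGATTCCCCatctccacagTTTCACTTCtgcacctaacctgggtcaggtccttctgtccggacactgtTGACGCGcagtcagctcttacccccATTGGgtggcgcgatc
H2-D1: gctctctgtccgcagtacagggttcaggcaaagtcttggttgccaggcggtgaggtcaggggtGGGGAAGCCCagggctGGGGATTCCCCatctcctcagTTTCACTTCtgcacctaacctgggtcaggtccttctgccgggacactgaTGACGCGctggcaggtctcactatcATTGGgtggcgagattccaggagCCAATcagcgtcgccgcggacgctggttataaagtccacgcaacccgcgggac
B2m: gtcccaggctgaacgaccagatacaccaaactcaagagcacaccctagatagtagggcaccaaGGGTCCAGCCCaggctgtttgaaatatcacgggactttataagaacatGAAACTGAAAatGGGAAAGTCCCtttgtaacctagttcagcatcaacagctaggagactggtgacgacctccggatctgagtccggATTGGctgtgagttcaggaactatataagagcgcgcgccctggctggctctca
Tap1 and Psmb9: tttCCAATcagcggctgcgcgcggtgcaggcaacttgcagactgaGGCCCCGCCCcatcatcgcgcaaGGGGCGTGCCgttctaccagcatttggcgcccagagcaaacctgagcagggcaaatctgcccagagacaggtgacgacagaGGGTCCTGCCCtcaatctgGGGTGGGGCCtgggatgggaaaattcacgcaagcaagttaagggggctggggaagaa

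The motifs were searched on both strands in the 250 bases before the start and may overlap each other. The kappaB motif (GGG, any 5 bases, CC) was found in 5 of the 8 promoters (H2-K1, H2-D1, B2m, Tap1 and Psmb9), and in 45.4% of 27025 promoters of the same length. The CCAAT motif, the core of the Y box bound by NF-Y, was found in 6 of the 8 (all but Psmb8 and Psmb10), and in 34.5% of all promoters. The interferon response element (GAAA, any 2 bases, GAAA) was found only in B2m (3.04% of all promoters), and its shorter form GAANNGAAA only in H2-K1 and H2-D1 (6.34%). The cyclic AMP element TGACGTCA was found in none of the 8 (1.62%). Its variant TGACGCG was found in H2-K1 and H2-D1 only (1.54%). Psmb8 held the interferon-gamma element TTCNNNGAA (7.18%), with none of the other motifs. The 2 short forms GAANNGAAA and TGACGCG were added after the heavy-chain promoters had been read. In H2-K1 the paired kappaB match began at bases -111 and -110, the GAANNGAAA match at -90, TGACGCG at -41 and CCAAT at -16. In H2-D1 each of these lay 60 bases farther from the annotated start (-171 and -170, -150, -101 and -76). At that offset 87.4% of the 190 compared bases (166) were identical. A match is a run of letters and was not measured as binding here.

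Levels are given as RPKM (reads divided by gene length and library total), which compares genes per unit length. The 9 genes fell into 4 tiers of level that kept their order in all 3 libraries. H2-D1, H2-K1 and B2m stood between 1969 and 2618 RPKM and ranked between 22nd and 33rd of the 37620 identifiers, depending on gene and library. Tapbp followed at 234.7 to 297.7 RPKM, then Psmb10, Psmb8, Tap1 and Tap2 between 50.1 and 98.3 RPKM, and Nlrc5 at 10.5 to 13.6 RPKM. Within tiers, the ranges over libraries of H2-K1 and B2m overlapped, as did those of Psmb10, Psmb8 and Tap1, whereas H2-D1 lay above H2-K1 and Tap1 above Tap2 in every library. In the DMSO library these values rested on at least 313 reads (Nlrc5) and up to 28234 reads (H2-D1), as the smallest whole numbers that the RPKM values allow.

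**Figure D1:**
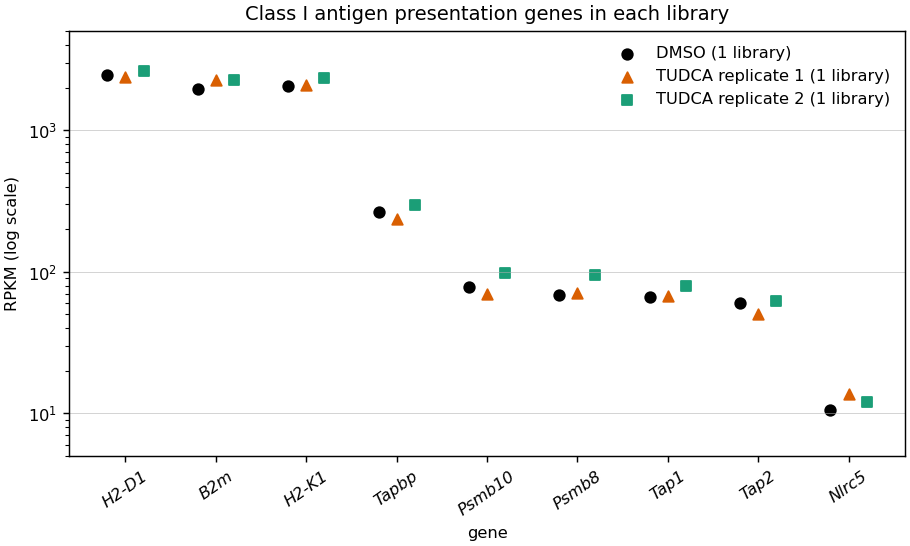
RPKM on a log axis of the 9 measured class I antigen presentation genes in the DMSO library and both TUDCA libraries (1 point is 1 library, no error bars). The heavy chains and B2m sit between 1969 and 2618 RPKM, Nlrc5 between 10.5 and 13.6, and the 3 libraries lie close together for each gene.

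No change with TUDCA was detected for any of the 9 genes. The limma test called 0 of 9, against 2.65% of the 11300 genes tested (1.77% higher and 0.876% lower), none of the 9 had an unadjusted p below 0.05 (10.8% of all genes did), and voom on whole reads recovered from the RPKM values also called 0 of 9 (2.36% of all genes). The median log2 fold change, on the log2(RPKM + 1) scale, was 0.10 for the 9 genes and 0.04 for all genes tested. Over tested genes within 2-fold of each of the 9 in level, it ran from -0.09 (for Tapbp) to 0.08 (for Nlrc5). The share of such genes with a lower fold change ran from 38.0% (Tap2) to 89.0% (Psmb8). Both TUDCA libraries lay above DMSO for 5 of the 9 genes (H2-K1, B2m, Tap1, Psmb8 and Nlrc5), against 40.5% of all genes, and both lay below it for none, against 30.4%. The DMSO value lay between the TUDCA values for H2-D1, Tap2, Tapbp and Psmb10. With 9 genes that share their libraries, these shares are a description. DMSO had no replicate, so the test took the spread from the pair of TUDCA libraries, pooled over genes of like level, and assumed that DMSO varies as they do. The series speaks of 2 independent experiments and does not tie the libraries to either, so p-values measure only the spread between these samples, which may be technical.

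Of the heavy chains, which hold the peptide at the cell surface, H2-K1 (ENSMUSG00000061232) had 2066 RPKM under DMSO, against 2093 and 2329 RPKM in TUDCA replicates 1 and 2 (given in this order throughout). The log2 fold change was 0.10 ± 0.20 (SE; 95% interval -0.29 to 0.48, limma adjusted p = 0.954), and the DMSO value lay just under the lower TUDCA value. H2-D1 (ENSMUSG00000073411) had 2444 RPKM under DMSO, against 2366 and 2618 RPKM under TUDCA, on either side of it (log2 fold change 0.03 ± 0.20, 95% interval -0.36 to 0.41, limma adjusted p = 0.993). The ratio of H2-K1 to H2-D1 was 0.845 in DMSO and 0.885 and 0.890 with TUDCA. Class I genes are close relatives: 8.11% of the 50-base words in the longest H2-K1 transcript and 14.3% of those of H2-D1 also occur in transcripts of other genes. Part of their reads may thus not be assignable with certainty.

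B2m (ENSMUSG00000060802), the invariant light chain that every class I heavy chain needs for stable surface display, had 1969 RPKM under DMSO, against 2255 and 2277 RPKM under TUDCA. Both TUDCA values were higher and close to each other, yet the difference was within the spread pooled over genes of its level (log2 fold change 0.20 ± 0.20, 95% interval -0.18 to 0.59, limma adjusted p = 0.838). No 50-base word of B2m occurs in another gene. The summed level of both heavy chains per B2m was 2.29 in DMSO and 1.98 and 2.17 with TUDCA, slightly lower in both TUDCA libraries, with no test.

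Tap1 (ENSMUSG00000037321) and Tap2 (ENSMUSG00000024339) encode the paired chains of the peptide transporter. Tap1 had 66.2 RPKM under DMSO, against 67.6 and 78.8 RPKM under TUDCA (log2 fold change 0.14 ± 0.22, 95% interval -0.29 to 0.57, limma adjusted p = 0.928). Tap2 had 60.7 RPKM under DMSO, against 50.1 and 61.7 RPKM under TUDCA (log2 fold change -0.12 ± 0.22, 95% interval -0.56 to 0.31, limma adjusted p = 0.942), and was the only one of the 9 with a negative fold change. The ratio of Tap1 to Tap2 was 1.09 in DMSO and 1.35 and 1.28 with TUDCA, a value with no test. Tapbp (ENSMUSG00000024308), which encodes tapasin, the bridge between the transporter and the empty class I molecule, had 263.0 RPKM under DMSO, against 234.7 and 297.7 RPKM under TUDCA. Its TUDCA values straddled DMSO and the log2 fold change was 0.01 ± 0.20 (95% interval -0.39 to 0.40, limma adjusted p = 0.996). In GENCODE M21, exons of opposite-strand genes cover 24.9% of the exon bases of Tapbp (Gm19412) and 3.87% of those of Tap1 (Psmb9). For Tap2, Gm15821 covers 14.1% and Gm20496 4.36%, both on the opposite strand. Zbtb22 on the same strand covers 4.11% of Tapbp, and no source used here says whether the counting used strand.

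**Figure D2:**
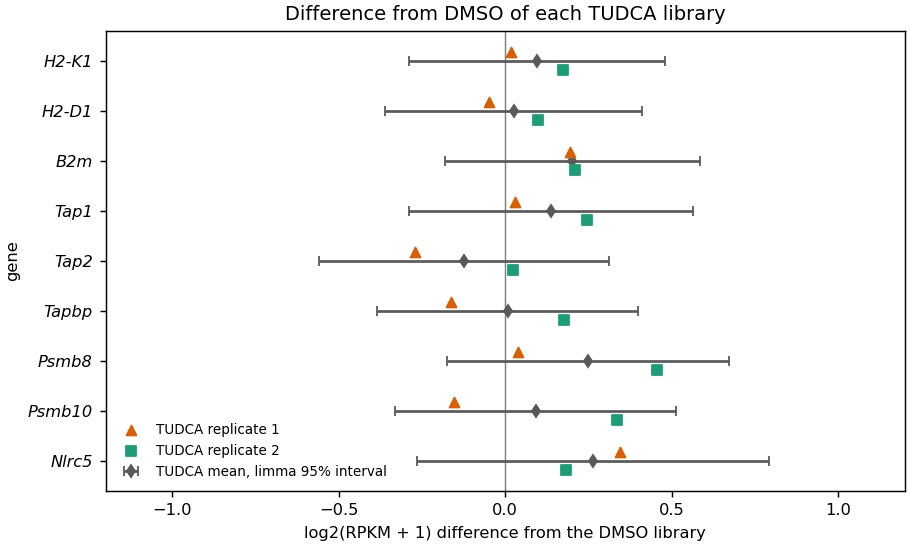
Difference from the DMSO library on the log2(RPKM + 1) scale for each TUDCA library (triangles and squares) and for their mean with limma's 95% interval (diamonds and bars). All 9 intervals cross 0 and lie between -0.56 (Tap2) and 0.79 (Nlrc5), and replicate 2 lies to the right of replicate 1 for every gene except Nlrc5.

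Of the 9 genes, the immunoproteasome subunits showed the widest gaps between the TUDCA libraries. Psmb8 (ENSMUSG00000024338), the inducible chymotrypsin-like subunit LMP7, had 69.1 RPKM under DMSO, against 71.0 and 95.2 RPKM under TUDCA. Replicate 1 was close to DMSO and replicate 2 above it (log2 fold change 0.25 ± 0.22, 95% interval -0.17 to 0.67, limma adjusted p = 0.801). Psmb10 (ENSMUSG00000031897), the inducible trypsin-like subunit MECL-1, had 77.6 RPKM under DMSO, against 69.7 and 98.3 RPKM under TUDCA, below DMSO in replicate 1 and above it in replicate 2 (log2 fold change 0.09 ± 0.22, 95% interval -0.33 to 0.51, limma adjusted p = 0.961). The log2 gap between the TUDCA libraries was 0.42 for Psmb8 and 0.49 for Psmb10. These gaps were wider than those of 91.9% and 95.7% of the tested genes within 2-fold of their level. Over the 9 genes, replicate 2 was above replicate 1 in 8, against 46.8% of all genes tested, and the median log2 gap was 0.22 against -0.02. This was not particular to these genes. Replicate 2 was also the higher in 11 of 12 proteasome activators, assembly factors and constitutive partners (median gap 0.22). Among interferon receptor and signalling genes it was the higher in 3 of 12 tested (median gap -0.17). Without replicate 1 the log2 fold change of Psmb8 was 0.46 and that of Psmb10 0.34, and without replicate 2 they were 0.04 and -0.15. Exons of the opposite-strand gene Gm20496 cover 14.7% of the exon bases of Psmb8.

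The constitutive counterparts Psmb5, Psmb6 and Psmb7, the catalytic subunits of the standard proteasome, were several times higher and none of them was called. Psmb5, which Psmb8 replaces, had 481.8 RPKM under DMSO, against 355.1 and 426.1 RPKM under TUDCA (log2 fold change -0.31 ± 0.20, limma adjusted p = 0.650). Psmb7, which Psmb10 replaces, had 385.6 RPKM under DMSO, against 323.1 and 352.2 RPKM under TUDCA (limma adjusted p = 0.856). Psmb6, the counterpart of Psmb9, had 542.1, 423.8 and 488.5 RPKM in that order (limma adjusted p = 0.763). All 3 were thus below DMSO in both TUDCA libraries. The ratio of Psmb8 to Psmb5 was 0.143 in DMSO and 0.200 and 0.223 with TUDCA, 1.48 times DMSO on average. The ratio of Psmb10 to Psmb7 was 0.201 in DMSO and 0.216 and 0.279 with TUDCA, 1.23 times DMSO on average. In both pairs each TUDCA ratio was above the DMSO ratio. With 1 against 2 libraries an exact permutation test cannot go below p = 0.333, so the ratios are given without a test.

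**Figure D3:**
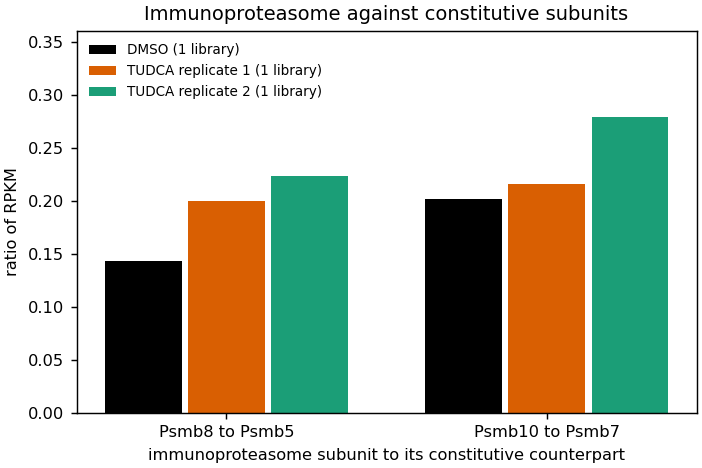
Ratio of RPKM of an immunoproteasome subunit to the constitutive subunit it replaces, in each library (1 bar is 1 library, linear axis from 0, no error bars). The Psmb8 to Psmb5 ratio is 0.143 in DMSO against 0.200 and 0.223 with TUDCA, and the Psmb10 to Psmb7 ratio 0.201 against 0.216 and 0.279.

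Nlrc5 (ENSMUSG00000074151), the transactivator that works on the class I promoters together with the RFX and NF-Y factors, had 10.5 RPKM under DMSO, against 13.6 and 12.1 RPKM under TUDCA. Both TUDCA values were higher, but the difference was within the pooled spread (log2 fold change 0.26 ± 0.27, 95% interval -0.26 to 0.79, limma adjusted p = 0.851). It was the lowest of the 9 genes and had the widest interval. The smallest whole read numbers that its RPKM values allow were 313 in DMSO and 367 and 353 with TUDCA, and the true numbers may be a multiple of these.

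Related genes were taken in lists by their role. Of 17 tested class I heavy chains of the Q, T and M regions and class I-like molecules (26 named), 1 was called lower and none higher, against 0.876% and 1.77% of all genes, with a median log2 fold change of 0.06. The gene called was Procr (the endothelial protein C receptor, which has a class I-like fold and binds protein C, not antigen peptides). It fell from 26.9 RPKM in DMSO to 10.6 and 12.2 RPKM (log2 fold change -1.18 ± 0.26, limma adjusted p = 0.000608). Among the heavy chains, named after their values were seen, H2-Q10, a class I molecule secreted by liver, had 466.9 RPKM under DMSO, against 449.6 and 456.8 RPKM under TUDCA. H2-T23, which encodes Qa-1, a ligand of natural killer cell receptors, had 225.6 RPKM under DMSO, against 211.1 and 261.3 RPKM under TUDCA. Neither was called (limma adjusted p = 0.986 and 0.979). These families share sequence: 19.7% of the 50-base words of H2-Q10 occur in other genes, and how many reads this touched was not measured.

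Of 18 tested genes of peptide loading and trimming, not all of which act in the ER (19 named), 1 was called lower and none higher, against the same shares of all genes, with a median log2 fold change of -0.10. Calr, which encodes calreticulin, the chaperone of the loading complex, fell from 1360 RPKM in DMSO to 677.7 and 669.1 RPKM (log2 fold change -1.01 ± 0.20, limma adjusted p = 2.99e-05). Both TUDCA values were close to each other and well under DMSO. Its partners in the loading complex did not pass: the oxidoreductase gene Pdia3 had 528.6 RPKM under DMSO, against 496.7 and 387.5 RPKM under TUDCA (limma adjusted p = 0.733). The chaperone gene Canx had 297.2 RPKM under DMSO, against 330.0 and 245.6 RPKM under TUDCA (limma adjusted p = 0.978). These 2 were named after their values were seen. Whether the fold change of Calr differed from those of Tapbp, B2m or the heavy chains was not tested. Calr and Procr were called in 10 of 11 settings and lost without the filter on low values (adjusted p = 0.502 and 0.509).

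**Figure D4:**
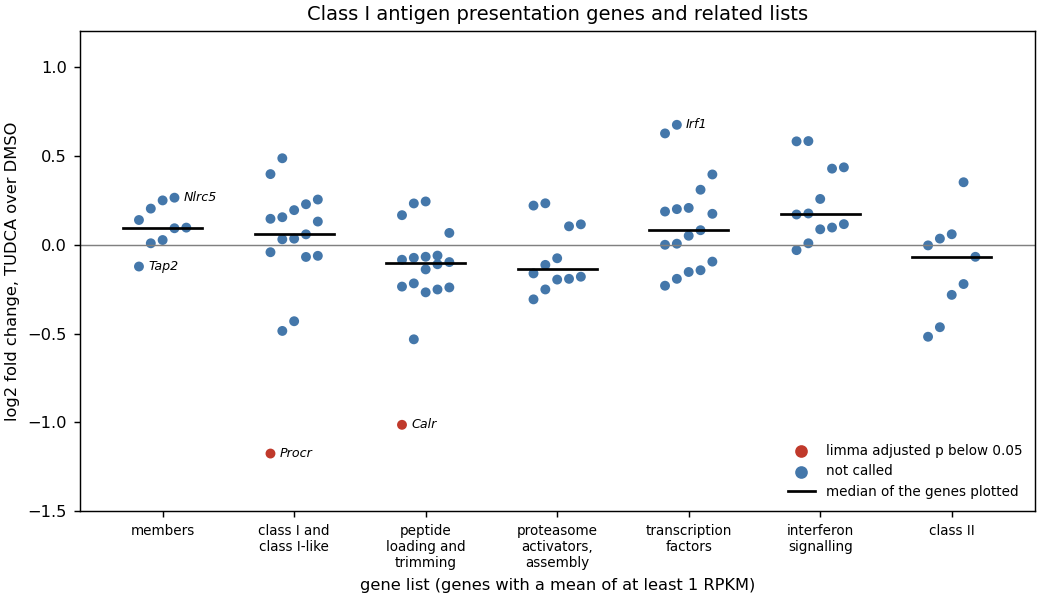
Log2 fold change of TUDCA over DMSO, on the log2(RPKM + 1) scale, for the class I antigen presentation genes and 6 related lists (1 point is 1 gene that averaged 1 RPKM or more, bars are medians, and red points have a limma adjusted p below 0.05). Procr and Calr, near -1.18 and -1.01, are the only red points.

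None of the 12 proteasome activators, assembly factors and constitutive partners was called by limma (0 at an unadjusted p below 0.05, median log2 fold change -0.14). Psme1 and Psme2, which encode the interferon-inducible activator PA28 (Psme2 named outside the rule), had 249.1 and 191.4 RPKM in DMSO. With TUDCA, Psme1 had 243.5 and 294.2 RPKM and Psme2 had 205.3 and 242.2 RPKM, so that replicate 2 was the higher TUDCA library here too. Of 17 tested transcription factors of class I genes none was called by limma (2 at an unadjusted p below 0.05, median log2 fold change 0.08). The highest, Rela, a subunit of NF-kappaB, had 94.0 RPKM under DMSO, against 79.9 and 96.7 RPKM under TUDCA. Next came Irf9, of the interferon-activated complex ISGF3 (45.6, 49.6 and 53.7 RPKM), Nfkb1, another NF-kappaB subunit (41.3, 53.2 and 49.6 RPKM), and Atf1, which binds cyclic AMP elements (51.4, 48.5 and 43.8 RPKM). None of these 4 had an unadjusted p below 0.05. Irf1, named after its values were seen, is an interferon-induced factor that acts on class I promoters. It had 27.1 RPKM under DMSO, against 39.7 and 48.5 RPKM under TUDCA (log2 fold change 0.67 ± 0.23, limma adjusted p = 0.104). Of 11 settings, only 1, the GC and length correction, called Irf1 (limma adjusted p = 0.0424). In the others the limma adjusted p ran from 0.0865 (TPM) to 0.583 (no filter). Both TUDCA libraries lay above DMSO.

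None of the 12 tested interferon receptor and signalling genes was called by limma (1 at an unadjusted p below 0.05, median log2 fold change 0.17). Of the 4 highest, the kinase gene Jak1 had 166.6 RPKM under DMSO, against 184.2 and 144.3 RPKM under TUDCA. Usp18, which restrains interferon signalling, had 74.7, 69.8 and 91.4 RPKM, and the phosphatase gene Ptpn11 63.8, 68.6 and 59.9 RPKM, in that order. For these 3 genes DMSO lay between the TUDCA values. The other 9 of the 12 lay above DMSO in both TUDCA libraries and 0 lay below it in both, against 40.5% and 30.4% of all genes. Ifngr1, the ligand-binding chain of the interferon-gamma receptor, had 67.2 RPKM under DMSO, against 121.4 and 83.9 RPKM under TUDCA (limma adjusted p = 0.150). The interferon genes Ifng and Ifnb1, named outside the rule, were listed at 0 in all 3 libraries. Of the class II list, the 4 genes with the highest levels lay below H2-K1, H2-D1, B2m, Tapbp, Psmb8, Psmb10, Tap1 and Tap2 in every library. Against Nlrc5, Cd74 and Ctss lay higher in every library, and H2-Ab1 and H2-Aa lower. The invariant chain gene Cd74 had 18.3 RPKM under DMSO, against 15.02 and 20.1 RPKM under TUDCA. The protease gene Ctss, which trims the invariant chain, had 16.8, 19.4 and 15.2 RPKM in that order. The chain genes H2-Ab1 and H2-Aa had 9.02 and 5.22 RPKM under DMSO, and H2-Ab1 was lower in both TUDCA libraries (5.71 and 6.30 RPKM, limma adjusted p = 0.543) while H2-Aa lay on either side (4.87 and 5.56 RPKM). Ciita, the class II transactivator, named outside the rule, was listed at 0 in DMSO and TUDCA replicate 2. None of 9 tested class II genes was called by limma (0 at an unadjusted p below 0.05, median log2 fold change -0.07).

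Hepatocyte markers were unequal in level, with Alb at 5771 RPKM under DMSO, against 7177 and 6111 RPKM under TUDCA. The 13 hepatocyte markers with a row summed to 13474 RPKM under DMSO, against 16490 and 14997 RPKM under TUDCA, and 2 of the 13 (Fgb and Hnf4a) were called higher, against 1.77% of all genes. Fgb lost its call without the filter (adjusted p = 0.562). Hnf4a lost it there, with median centring and without the variance trend (adjusted p = 0.502, 0.153 and 0.160). The urea cycle enzymes among these markers were low: Cps1 had 2.62 RPKM under DMSO, against 5.79 and 6.08 RPKM under TUDCA, and Arg1 had 17.7, 18.2 and 18.5 RPKM in that order. Neither was called, Cps1 with a limma adjusted p of 0.0587 (0.00674 with voom). Most markers of other cells that carry class I molecules were low, apart from those of macrophages and the cholangiocyte marker Spp1. The leukocyte marker Laptm5 (35.1, 28.7 and 31.7 RPKM in that order) also stood above Arg1 in every library. So did the cholangiocyte marker Sox9 (20.4, 26.1 and 31.7 RPKM). The 12 macrophage and Kupffer cell markers summed to 356.1 RPKM under DMSO, against 323.8 and 342.0 RPKM under TUDCA (0 of 11 tested called by limma). Cd68 made 170.4, 154.3 and 169.4 RPKM of this and the Kupffer cell marker Clec4f (named outside the rule) 3.50, 3.93 and 4.42 RPKM. Other markers of this list stood higher than Clec4f and fell with TUDCA, such as C1qa (40.2, 33.9 and 34.1 RPKM) and Cd5l (37.6, 34.1 and 28.6 RPKM). Of the 11 tested, 5 lay above DMSO in both TUDCA libraries and 5 below it in both. The 4 leukocyte markers summed to 46.9 to 57.3 RPKM over the libraries, the 9 endothelial markers to 19.4 to 23.6, the 9 stellate and fibroblast markers to 9.93 to 13.2, and the 5 dendritic cell markers to 1.55 to 2.66. The 10 lymphocyte markers summed to 0.488 to 0.688 RPKM, with 6 of them, among them Cd3e and Ms4a1, listed at 0 in all libraries. The 6 cholangiocyte markers summed to 419.2 RPKM under DMSO, against 803.8 and 627.4 RPKM under TUDCA, nearly all of it Spp1, which was called higher and lost the call with median centring, without the variance trend and without the filter (adjusted p = 0.136, 0.134 and 0.597). The part of these cells in the class I levels was not tested, and in bulk samples fewer cells of a type and less RNA per cell cannot be told apart.

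Many genes had like differences from DMSO, so the nearest ones do not stand out. The medians of the 9 genes' log2 differences from DMSO were 0.02 in TUDCA replicate 1 and 0.18 in replicate 2, both taken against the same DMSO library. Of 6814 other genes that averaged 10 RPKM or more, 369 lay within 0.1 of that pair of values (Euclidean distance over the 2 differences). The 5 nearest were Angptl4, Rpl6, Mrps25, Tmem106a and Csnk1d, at distances of 0.0044 to 0.0093. Over so few libraries this likeness is a description only.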

How the data were processed

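RNA-seq of 1 DMSO and 2 TUDCA libraries of primary mouse hepatocytes was used. The authors deposited RPKM values, 1 table per library with 37620 Ensembl identifiers. Per the submitters' processing notes, the tools were HTSeq, Bowtie2, TopHat2 2.0.7 and CASAVA, with no roles stated. Genome build, annotation and strand setting: not given in the sources used here. Symbols from GENCODE M21 matched 32897 identifiers, 11149 of the 11300 genes tested. Whole reads were recovered from the RPKM steps for all 19146 genes above 0 (tolerance 0.01 reads) at totals of 10774289, 9757547 and 10575699 reads for DMSO and TUDCA replicates 1 and 2. The smallest whole numbers that fit were used, and a gene may hold a multiple of them.

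Genes that averaged 1 RPKM or more were tested as log2(RPKM + 1), which understates changes of low genes. limma 3.58.1 in R 4.3.3 was used, with eBayes, a variance trend and Benjamini-Hochberg adjustment over all 11300 genes at a threshold of 0.05. There was 1 residual degree of freedom, and limma gave each gene the common spread at its level (SD of log2 values 0.159 to 0.265), not its own. Alternatives were no filter or one at 5 RPKM, a pseudocount of 0.1, TPM, quantile normalization, median centring, no trend, robust estimation, voom on the recovered reads, a GC and length correction (loess) and leaving out each TUDCA replicate. Genes were to be named as all 10 members, the called members of each list or else its 4 highest, the 3 constitutive proteasome partners and the 5 most alike genes. Names outside this rule are marked, other than cell markers and genes that overlap the members. Some genes of the lists are not reported here by name. Psmb9 was left out for want of a matching identifier. The members and lists were chosen with earlier results of these data known.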

Additional observations from a re-analysis of the deposited data

How the results depend on the processing

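None of the 9 measured class I antigen presentation genes was called in limma's main fit or in any of its 10 alternatives, voom included, with 0 unadjusted p-values below 0.05 among them in each. The count of called genes among all tested ranged from 232 to 340 over the settings with a filter, and was 0 without the filter (19146 genes, 1696 at an unadjusted p below 0.05). Fold changes near 0 changed sign. That of H2-D1 was -0.0516 with quantile normalization and -0.0487 with median centring, and ran from -0.0473 to 0.0989 with 1 TUDCA replicate left out. That of Tapbp was -0.0669 with median centring and ran from -0.163 to 0.178 with 1 left out. With 1 left out, Tap2 ran from -0.271 to 0.0249 and Psmb10 from -0.153 to 0.337. H2-K1, B2m, Tap1, Psmb8 and Nlrc5 kept a positive fold change in all 12 alternatives. Several of these could not alter it: both filter settings, no trend and robust estimation leave each fold change as it is. Leaving out 1 replicate returns the difference of the other TUDCA library from DMSO, positive in both libraries for these genes, as already given. With quantile normalization the ratio of Psmb8 to Psmb5 with TUDCA was 1.495 times that in DMSO, and that of Psmb10 to Psmb7 was 1.19 times. Leaving out 1 replicate could not bring either below DMSO, since it returns the ratio of the other TUDCA library, already given as above DMSO. A count of calls without 1 TUDCA replicate has no residual degree of freedom and was not given. No paired analysis was possible because 1 DMSO library cannot be paired with both TUDCA libraries. The single DMSO library limits every comparison. Nlrc5 had the lowest of the smallest whole read numbers that the RPKM values allow for the 9 genes, 313 to 367. As a gene may hold a multiple of these, which gene had the fewest reads is not known.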
